A study of Mus musculus with 8 samples.

Results

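Aldehyde oxidase and the other oxidases of drug, purine, sulfite and amine metabolism that are not cytochromes P450 were followed in mouse liver. The members, picked by gene name with earlier results of these data known, were Aox1, Xdh, Suox, Maoa, Maob, Fmo1, Fmo2 and Fmo5. Of these 8 genes, 7 had a probe set that the platform annotation pairs with that gene only, and no probe set of that kind was found for Maob. The 7 genes had 10 probe sets, out of 22626 probe sets and 12393 genes of the array. Livers came from 4 TrxR1/Gsr-null mice and from 4 wild-type (WT) mice, each on 1 Affymetrix 3′ array. All 8 animals were female, 4 weeks old and of a C57BL/6J background, and the livers were taken in the late morning. TrxR1 (gene Txnrd1) and Gsr are the NADPH-dependent reductases of cytosolic thioredoxin and of glutathione. The deleted exons, any Cre driver and the cells that carry the deletions were not stated in the labels. Gsr was lower in the livers labelled null (6.01 ± 0.22 against 7.16 ± 0.09 in WT livers, SD, n = 4 each). Txnrd1 was higher there (11.92 ± 0.19 against 9.82 ± 0.17), and since the deleted exons are not known, its RNA level cannot check the label.

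Values are log2 expression values after GCRMA, so a difference of 1 is a doubling, and folds are powers of 2 of the difference between group means. A gene was called when its adjusted p from limma, Benjamini-Hochberg over all 7534 genes that passed a filter on low values, was below 0.05. All 7 measured oxidases passed that filter at the probe set kept for each gene. Levels of different probe sets are not comparable on this array. Each array is a separate animal. The limma p-values set each difference between genotypes against the spread between these animals, with the variance of each gene drawn towards that of the others.

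Aldehyde oxidase, xanthine dehydrogenase and sulfite oxidase are molybdoenzymes: they hold a molybdenum cofactor at the active site and pass electrons on to other carriers. Aldehyde oxidase and xanthine dehydrogenase also hold iron-sulfur clusters and FAD, and hand electrons to oxygen or, for xanthine dehydrogenase, to NAD. Monoamine oxidases sit on the outer mitochondrial membrane and release hydrogen peroxide as they deaminate amines. Flavin-containing monooxygenases of the endoplasmic reticulum use NADPH and oxygen to oxygenate nitrogen and sulfur atoms of drugs and food amines. The submitters' title names the response of Nrf2, a transcription factor that oxidants and electrophiles activate and that binds antioxidant response elements, and Aox1 is known as a target of Nrf2 in mouse liver.

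RefSeq start-site windows, each 250 bases before to 50 bases after an annotated start in GRCm38.p6, were held for 5 of the 8 genes. The windows of Aox1 and Suox are shown because their genes were called and stand on opposite sides. The Aox1 window is chr1:58029719-58030018 on the plus strand and the Suox window is chr10:128673869-128674168 on the minus strand, both printed 5′ to 3′. The capitals in Aox1 mark the AP-1 letters TGACTCA.
Aox1: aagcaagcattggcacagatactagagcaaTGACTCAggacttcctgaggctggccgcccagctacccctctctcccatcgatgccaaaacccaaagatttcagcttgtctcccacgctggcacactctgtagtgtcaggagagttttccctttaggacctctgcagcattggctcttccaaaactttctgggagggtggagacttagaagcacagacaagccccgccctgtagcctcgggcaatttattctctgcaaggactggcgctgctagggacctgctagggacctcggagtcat
Suox: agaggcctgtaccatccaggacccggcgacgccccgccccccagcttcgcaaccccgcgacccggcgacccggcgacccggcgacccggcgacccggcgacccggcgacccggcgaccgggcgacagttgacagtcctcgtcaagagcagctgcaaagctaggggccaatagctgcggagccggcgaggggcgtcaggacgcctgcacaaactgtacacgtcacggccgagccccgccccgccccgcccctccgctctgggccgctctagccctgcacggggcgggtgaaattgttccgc
The core letters of the antioxidant response element, TGACNNNGC, were searched on both strands and were in none of the 6 windows of these 5 genes, against 12.4% of all 32851 windows. TGACTCA, a motif looked for on both strands after the Aox1 window had been read, was in 1 of the 6, that of Aox1, 220 bases before the start. It was in 5.2% of all windows. Since the motif was chosen with the Aox1 window known, its match there was fixed beforehand, and nothing is read from this comparison. A match is a run of letters and not a site, and letters outside these windows were not searched.

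Aox1 rose and Xdh and Suox fell in TrxR1/Gsr-null livers, and Maoa, Fmo1, Fmo2 and Fmo5 were not called. So 1 of 7 oxidases was called higher, where 4.47% of all genes tested were, and 2 of 7 were called lower, where 2.15% of all genes were. The groups did not overlap for 4 of 7 (Aox1, Xdh, Suox and Fmo2), where they did not for 16.6% of all genes. Over all 22626 probe sets with no filter, 1 of the 10 probe sets was called higher (Aox1) and 1 lower (Xdh), against 2.09% and 0.888% of all, and 4 of 10 did not overlap, against 11.2%. Without WT replicates 3 and 4, whose values were more narrowly spread than those of the other arrays, the counts were 1 higher and 1 lower, since Suox was then not called. The median difference of all genes tested was 0.10 log2 units.

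**Figure D1:**
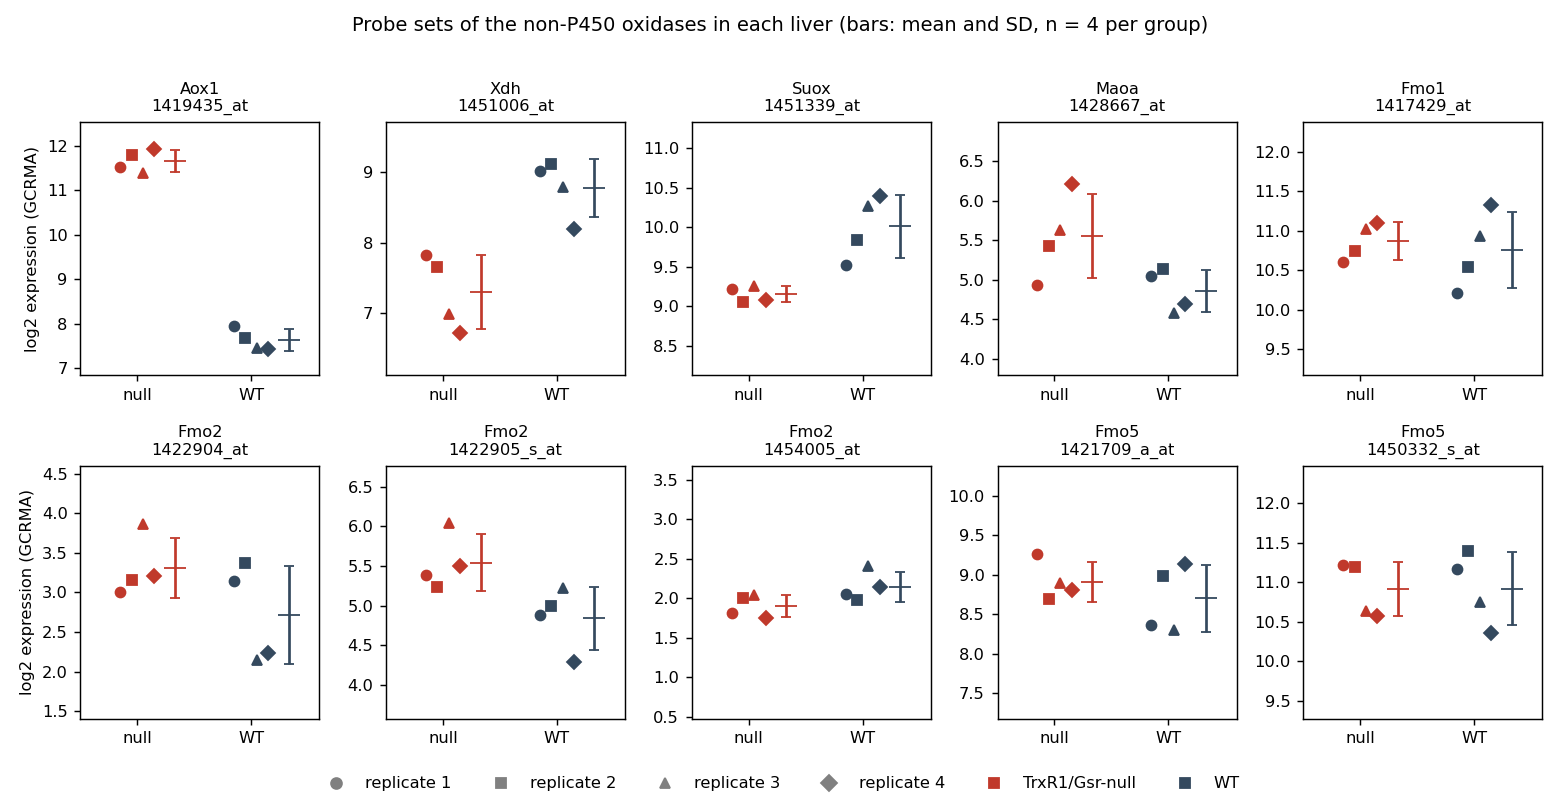
Log2 expression (GCRMA) of each probe set of the oxidases in 4 TrxR1/Gsr-null livers (null, red, left) and 4 WT livers (dark, right); symbols give the replicate number, bars the mean and SD, and the panels have different vertical scales. The null values of Aox1 lie between 11.39 and 11.94, all above the WT values, while those of Xdh and Suox lie below the WT values and the Fmo5 groups overlap.

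Aox1, a cytosolic enzyme that oxidizes aldehydes such as retinaldehyde and nitrogen heterocycles such as methylnicotinamide, was the oxidase with the widest gap between the genotypes. Its probe set read 11.54, 11.79, 11.39 and 11.94 in TrxR1/Gsr-null livers and 7.94, 7.68, 7.45 and 7.44 in WT livers. All null values were above all WT values, and the groups were 3.45 log2 units apart at their nearest values, many times the SD of 0.25 in null livers and 0.24 in WT livers. The difference was 4.04 ± 0.20 log2 units (SE), 16.4-fold, with a limma adjusted p of 3.81e-06. It was the 9th widest rise of the 7534 genes tested. The difference was 3.60 to 4.51 in the 4 pairs of the same replicate number, 3.85 within replicates 1 and 2 and 4.23 within replicates 3 and 4.

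The signed difference of Aox1 was set against that of each other oxidase within the same arrays, a comparison written with the rise of Aox1 already known. It exceeded that of Fmo2 by 3.34, of Maoa by 3.35, of Fmo1 by 3.92, of Fmo5 by 4.05, of Suox by 4.89 and of Xdh by 5.51 log2 units. Each of these 6 comparisons gave p = 0.0286 in a two-sided exact permutation test, the smallest that 4 against 4 arrays allow, and 0.0286 after Benjamini-Hochberg adjustment over the 6. For Xdh, Suox and Fmo5, whose own differences were below 0, such a value adds both sizes, so it tests signed differences and not which gene changed by more. Aox1 was chosen for these comparisons with its wide rise known, so reaching the smallest p was close to fixed. The p-values are therefore no independent support for a difference between Aox1 and the others.

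Aox3, the paralog next to Aox1 in the aldehyde oxidase cluster and an aldehyde oxidase that mouse liver also makes, did not share the rise. It read 9.62, 9.97, 9.97 and 10.08 in TrxR1/Gsr-null livers and 10.57, 10.25, 10.92 and 10.28 in WT livers. Every null value was below every WT value, yet the difference of -0.59 ± 0.21 (SE) was not called, with a limma adjusted p of 0.118. The signed difference of Aox1 exceeded that of Aox3 by 4.63 (two-sided exact permutation test, p = 0.0286). This comparison was added after the values were seen, so its p is no independent support either. Aox4, also of the cluster, was at 1.6 to 1.91 in null livers and at 1.82 to 2.07 in WT livers, all below the limit of 3.38 used for low values.

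Xdh, which takes hypoxanthine to xanthine and xanthine to uric acid, fell. Its values were 7.83, 7.66, 6.99 and 6.72 in TrxR1/Gsr-null livers and 9.02, 9.11, 8.79 and 8.19 in WT livers. The groups did not overlap and lay 0.36 apart at their nearest values, less than the SD of either group (0.53 in null livers and 0.41 in WT livers). The difference was -1.48 ± 0.30 log2 units (SE), 2.78-fold lower, with a limma adjusted p of 0.0171. Replicates 3 and 4 read lower than replicates 1 and 2 in both genotypes. The same-numbered pairs differed by -1.80 to -1.19, and since the groups did not overlap, any pairing would put Xdh lower in the null liver of all 4 pairs. With the replicate number as a block the adjusted p was 0.00382. Within replicates 1 and 2 the difference was -1.32, and within replicates 3 and 4 it was -1.63 and not called (adjusted p = 0.0534). Adjusted over all 22626 probe sets with no filter, Xdh was called too (adjusted p = 0.028), a call lost without any of WT replicates 1, 2 and 3 or null replicates 2, 3 and 4 (largest adjusted p 0.0811).

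Suox, the mitochondrial enzyme that turns sulfite from cysteine breakdown into sulfate, was also called lower, by less. It read 9.22, 9.06, 9.26 and 9.08 in TrxR1/Gsr-null livers and 9.52, 9.84, 10.27 and 10.40 in WT livers. The null livers were alike (SD 0.10), and the WT livers were spread more widely (SD 0.40), with WT replicates 3 and 4 highest. The difference was -0.85 ± 0.22 (SE), 1.81-fold lower, with a limma adjusted p of 0.0448, and 0.0577 over all probe sets with no filter. The call was lost when any array but WT replicate 1 was left out, with adjusted p from 0.0695 to 0.125. Without WT replicates 3 and 4 the difference was -0.53 (adjusted p = 0.171). Within replicates 1 and 2 it was -0.54 and within replicates 3 and 4 it was -1.16, neither called (adjusted p = 0.145 and 0.0747). WT replicates 3 and 4 had interquartile ranges of 3.97 and 3.74 over all probe sets, against 4.31 to 4.44 on the other 6 arrays. The log2 difference between the 3′ and 5′ probe sets of Actb, a measure of RNA integrity, was 1.5 and 1.57 there, against 1.76 on TrxR1/Gsr-null replicate 3 and 1.01 to 1.17 on the other 5. For Gapdh the 3′ to 5′ difference did not set both of these arrays apart, at -0.32 and -0.23 there, against -0.70 to -0.26 on the other 6. The part of these array differences in the Suox result was not tested.

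Maoa, the monoamine oxidase that prefers serotonin and noradrenaline, was not called. It read 4.93, 5.43, 5.63 and 6.21 in TrxR1/Gsr-null livers and 5.05, 5.14, 4.58 and 4.69 in WT livers. The null livers of replicates 2, 3 and 4 were above every WT liver, and that of replicate 1 lay among the WT values. The difference was 0.68 ± 0.27 log2 units (SE), with a limma adjusted p of 0.172. It was 0.08 within replicates 1 and 2 and 1.29 within replicates 3 and 4, and was called in neither.

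The flavin-containing monooxygenases were not called either. Fmo1, a main drug-oxidizing form, read 10.60, 10.74, 11.02 and 11.10 in TrxR1/Gsr-null livers and 10.22, 10.54, 10.93 and 11.33 in WT livers. The groups overlapped over most of their range, with a difference of 0.11 ± 0.25 (SE, adjusted p = 0.841). Fmo5, known in mice for a role in metabolic ageing and for Baeyer-Villiger oxidation of ketones, read 11.22, 11.19, 10.64 and 10.57 in null livers and 11.17, 11.39, 10.75 and 10.36 in WT livers at its brighter probe set. That probe set can match related transcripts. The groups again overlapped, with a difference of -0.01 ± 0.27 (SE, adjusted p = 0.986). The other Fmo5 probe set, which can match several transcripts of the gene, gave 0.22 ± 0.23 (adjusted p = 0.676 over all probe sets). At that brighter probe set of Fmo5 replicates 3 and 4 read lower than replicates 1 and 2 in both genotypes, and for Fmo1 they read higher in both.

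Fmo2, the form best known from lung, had 3 probe sets, of which 1 stood above the low-value limit on all arrays. That probe set, which can match related transcripts, read 5.39, 5.23, 6.05 and 5.5 in TrxR1/Gsr-null livers and 4.88, 4.99, 5.22 and 4.29 in WT livers. The null livers were all higher, but the groups were only 0.02 apart at their nearest values. The difference of 0.70 ± 0.25 log2 units (SE) was not called, with a limma adjusted p of 0.133. The second probe set was at 3.0 to 3.86 in null livers and at 2.15 to 3.37 in WT livers, the third at 1.75 to 2.04 and at 1.98 to 2.41, and neither was called over all probe sets (adjusted p = 0.396 and 0.451). The 3 lung markers measured, Sftpc, Sftpb and Scgb1a1, were at or below 2.73 on all arrays. Fmo4, which lies beside Fmo1 in the same gene cluster, was at 2.68 to 3.62 in null livers and at 2.43 to 3.63 in WT livers and did not pass the filter on low values.

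**Figure D2:**
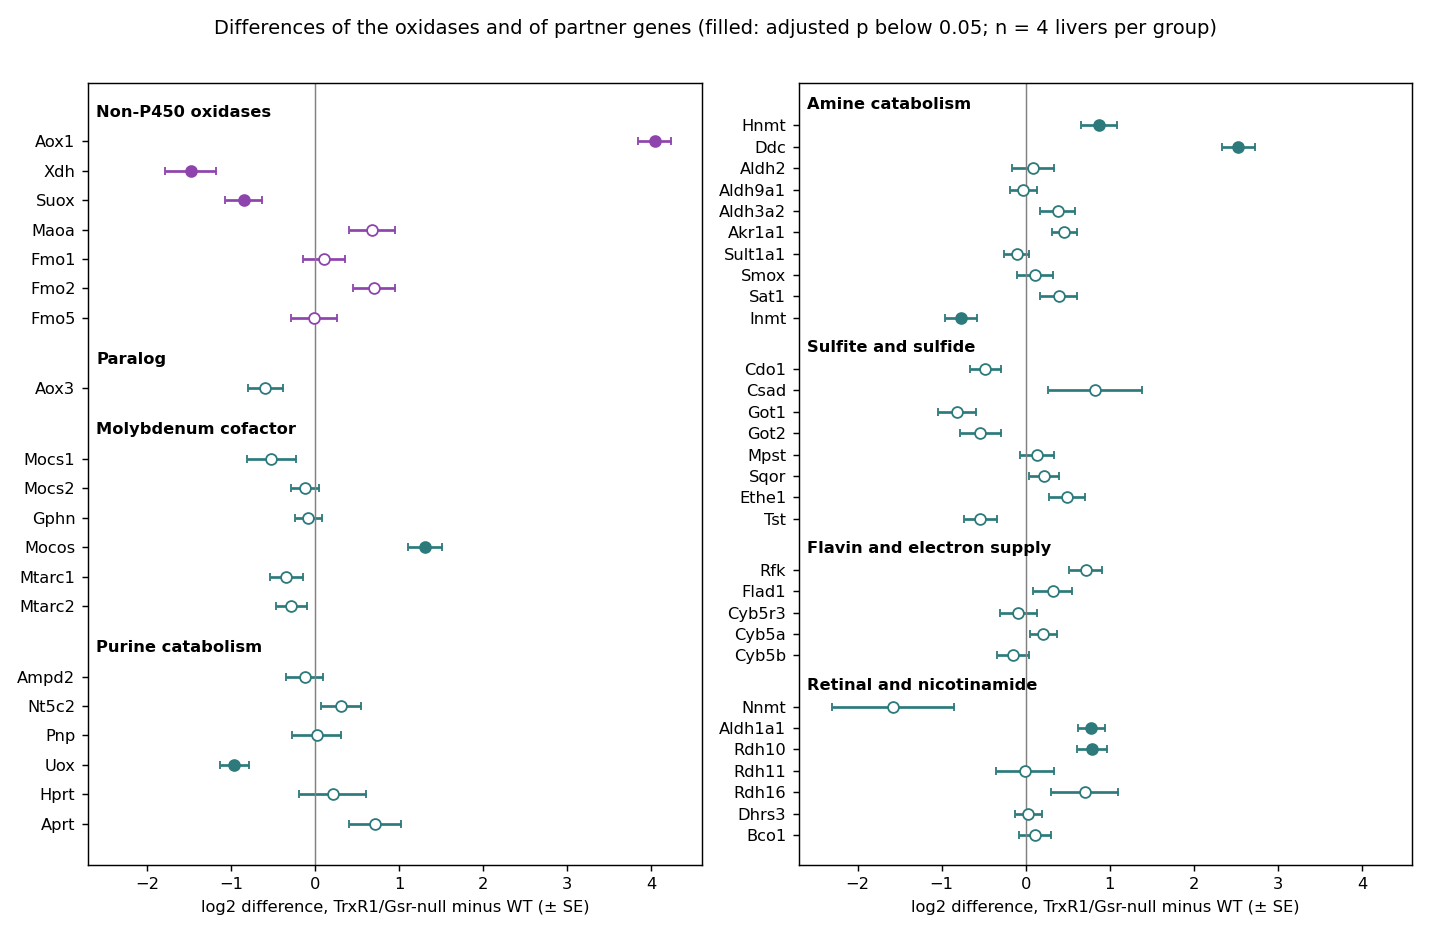
Log2 difference between TrxR1/Gsr-null and WT livers (horizontal axis, bars ± SE, n = 4 per group) for the 7 oxidases and for the tested genes of 7 lists of partner enzymes; filled points have an adjusted p below 0.05. Aox1 (4.04) and Ddc (2.53) lie farthest to the right, and Xdh (-1.48), Uox (-0.96), Suox (-0.85) and Inmt (-0.77) are the filled points left of 0.

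Of 43 tested genes on 7 lists of partner enzymes, 5 were called higher and 2 lower, against 4.47% and 2.15% of all genes tested. In the molybdenum cofactor list 1 of 6 genes was called higher and 0 lower, at a median difference of -0.20. That gene was Mocos, the sulfurase that puts a terminal sulfur on the cofactor of aldehyde oxidase and xanthine dehydrogenase but not of sulfite oxidase. Mocos read 9.77, 10.08, 10.19 and 9.75 in TrxR1/Gsr-null livers and 8.30, 8.79, 8.87 and 8.60 in WT livers. All null livers were higher, by 1.31 ± 0.20 log2 units (SE), 2.47-fold, with a limma adjusted p of 0.00413. The cofactor's synthesis genes were not called: Mocs1 differed by -0.52, Mocs2 by -0.12 and Gphn by -0.08. Nor were Mtarc1 (-0.34) and Mtarc2 (-0.28), the remaining mammalian molybdoenzymes, which reduce amidoximes.

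In purine catabolism 1 of 6 tested genes was called lower and none higher, with a median difference of 0.12. It was Uox, the urate oxidase that mice use to break down the uric acid that xanthine dehydrogenase makes. Uox read 11.50, 11.44, 11.45 and 11.06 in TrxR1/Gsr-null livers and 12.37, 12.23, 12.40 and 12.30 in WT livers. It was lower in every null liver, by a difference of -0.96 ± 0.17 log2 units (SE), 1.95-fold, with a limma adjusted p of 0.00885. Pnp, the purine nucleoside phosphorylase upstream of Xdh, differed by 0.02, and the salvage enzymes Hprt and Aprt by 0.21 and 0.71, none of them called. Ada, Ampd3, Nt5e, Gda and Allc did not pass the filter on low values.

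In amine catabolism 2 of 10 tested genes were called higher and 1 lower, with a median difference of 0.25. Ddc, the decarboxylase that makes dopamine and serotonin, both substrates of monoamine oxidase, read 12.02, 12.07, 11.69 and 12.11 in TrxR1/Gsr-null livers and 9.52, 9.83, 9.11 and 9.29 in WT livers. Ddc was higher in all null livers, by 2.53 ± 0.20 log2 units (SE), 5.79-fold, with a limma adjusted p of 8.22e-05. Hnmt, the histamine N-methyltransferase, averaged 8.93 ± 0.30 in null livers and 8.05 ± 0.27 in WT livers (SD, n = 4 each), 1.83-fold higher (limma adjusted p = 0.0381). Inmt, an indolethylamine N-methyltransferase, averaged 12.03 ± 0.24 in null livers and 12.80 ± 0.16 in WT livers, 1.71-fold lower (limma adjusted p = 0.0356). Neither Hnmt nor Inmt was called without WT replicates 3 and 4 (adjusted p = 0.169 and 0.121), and each was lost in 7 of the 8 fits with 1 array left out (adjusted p up to 0.107 and 0.0971). Aldh2, Aldh9a1 and Aldh3a2, which take on the aldehydes that monoamine oxidases make, differed by 0.08, -0.03 and 0.38 and were not called.

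Among makers and other users of the substrates of aldehyde oxidase, 2 of 7 tested genes were called higher and 0 lower, at a median difference of 0.11. Aldh1a1, a retinaldehyde dehydrogenase, averaged 12.96 ± 0.08 in TrxR1/Gsr-null livers and 12.18 ± 0.14 in WT livers, 1.71-fold higher (limma adjusted p = 0.019). The call of Aldh1a1 was lost without TrxR1/Gsr-null replicate 1, 2 or 4 (adjusted p up to 0.0562). Rdh10, which makes retinaldehyde from retinol, averaged 7.93 ± 0.22 in null livers and 7.13 ± 0.17 in WT livers, 1.73-fold higher (limma adjusted p = 0.0304). The Rdh10 call was lost after quantile normalization (adjusted p = 0.052), without WT replicates 3 and 4 (adjusted p = 0.122) and in 6 of the 8 fits with 1 array left out (adjusted p up to 0.0799). Nnmt, which makes methylnicotinamide, was spread widely, with 5.90, 8.46, 9.87 and 8.45 in null livers and 10.73, 10.22, 9.23 and 8.82 in WT livers. The groups of Nnmt overlapped and it was not called (adjusted p = 0.235). Nnmt was called in 1 of 20 other settings.

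No gene of the other lists was called as reported, but some were under other settings. In the sulfite and sulfide list, with 8 genes tested and a median difference of -0.18, Cdo1, which starts cysteine oxidation upstream of sulfite, differed by -0.48 (adjusted p = 0.162) and Csad, which takes cysteine sulfinate towards taurine, by 0.82 (adjusted p = 0.422). Got1, the cytosolic aspartate aminotransferase, which also acts on cysteine sulfinate, read 9.25, 9.53, 9.52 and 9.64 in TrxR1/Gsr-null livers and 10.41, 10.26, 9.77 and 10.80 in WT livers. The groups of Got1 did not overlap, and its difference of -0.82 ± 0.23 (SE) had a limma adjusted p of 0.0627. Got1, named here after its values were seen, was called lower in 9 of 21 settings, among them quantile normalization (adjusted p = 0.0416), median centring (adjusted p = 0.0392) and without WT replicates 3 and 4 (adjusted p = 0.0492). The list had 0 to 2 genes called lower over the settings, and Csad was called in 1 of 20. In the flavin and electron supply list, with 5 tested and a median of 0.21, Rfk, the riboflavin kinase, differed by 0.71 (adjusted p = 0.0648, called in 4 of 21 settings) and Flad1, the FAD synthase, by 0.32 (adjusted p = 0.437). The lists hold few genes, and nothing particular to a list is read from these counts.

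Genes with the pattern nearest to each called oxidase were found by the root mean square difference between log2 profiles over the 8 arrays, each centred on its own mean. Nearest to Aox1 were Abcc5, an efflux pump (0.32 log2 units), Slc48a1, a heme transporter (0.38), Srxn1, the sulfiredoxin (0.44), Gipc2 (0.45) and Bex4 (0.46). Their differences ran from 3.72 to 4.50 log2 units, against 4.04 for Aox1. The WT values of Abcc5 were all below the low-value limit, as were Gipc2 in WT replicate 2 (3.28) and Bex4 in WT replicate 3 (2.88). Nearest to Xdh was Upp2, a uridine phosphorylase of liver (0.19), at 8.86, 9.09, 8.35 and 8.20 in TrxR1/Gsr-null livers and 10.57, 10.79, 10.00 and 9.55 in WT livers. Upp2 was 3.04-fold lower (limma adjusted p = 0.0131) and, like Xdh, read lower in replicates 3 and 4 of each genotype than in replicates 1 and 2. Gadd45gip1 (0.31), the desaturase Scd1 (0.32), Ang (0.33) and the sterol desaturase Sc5d (0.34) followed, with differences of -1.26 to -0.98. Nearest to Suox were H2ac19, a histone H2A gene (0.14), Bdh1, a ketone body dehydrogenase (0.17), Cdc42ep4 (0.18), Hoga1 (0.18) and Pklr, the pyruvate kinase of liver (0.19). Of these last 5 genes Hoga1 and Pklr were called lower (adjusted p = 0.0338 and 0.0308). The profiles share the same 8 arrays and the structure between replicates 1 and 2 and replicates 3 and 4, and the likeness is a description.

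**Figure D3:**
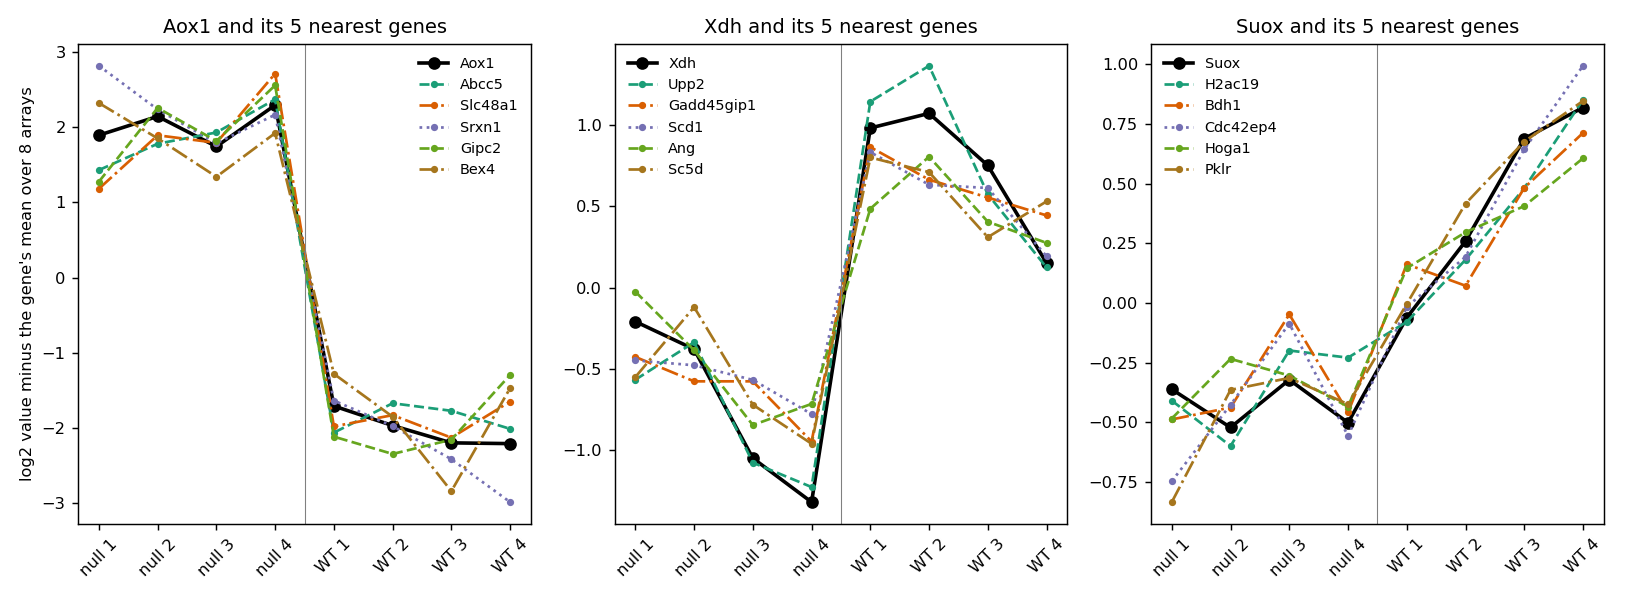
Log2 values of Aox1, Xdh and Suox (black) and of the 5 genes nearest to each in pattern (colours) on the 8 arrays, each gene centred on its own mean; TrxR1/Gsr-null livers (null) are left of the grey line and WT livers right of it, and the lines only join points of 1 gene. Aox1 and its nearest genes are all high in null livers, while Xdh with Upp2 and Suox with its nearest genes are lower there.

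Markers of liver cell types were read beside these results. Hepatocyte markers (Alb, Apoa1, Ttr, Tat and Hpd) were above the low-value limit on all arrays and 0 of 5 were called. Their summed level, as log2, was 15.16 to 15.67 in TrxR1/Gsr-null livers and 15.78 to 16.01 in WT livers, so it was lower in null livers without overlap. Such a sum is carried mostly by its brightest probe sets. Xdh and Suox were also lower without overlap, while the groups of Maoa, Fmo1 and Fmo5 overlapped and Aox1 and Fmo2 were higher. For 6 endothelial markers, a cell type that also makes Xdh, 0 were called and the summed level was 10.57 to 11.01 in null livers and 10.74 to 11.06 in WT livers. For 5 Kupffer cell and macrophage markers, 0 were called, with 11.82 to 12.33 in null livers and 12.06 to 12.81 in WT livers. For 6 stellate and fibroblast markers, 5 of them tested, 0 were called, with 11.31 to 11.94 in null livers and 11.71 to 12.23 in WT livers. Of 4 bile duct markers 2 were tested and 1, Epcam, was called higher, and none of the 4 was above the low-value limit on all arrays. Of 6 lymphocyte, 3 neutrophil and 3 erythroid markers 2 of each were tested and 0 called, and only 1 of each was above the low-value limit on all arrays. Neutrophil markers had summed levels of 6.21 to 6.80 in null livers and 4.77 to 6.29 in WT livers. Lymphocyte markers had 7.52 to 7.99 and 7.41 to 7.70, and erythroid markers 6.15 to 7.32 and 6.44 to 7.34. In whole liver, fewer cells of a type and less RNA per cell cannot be told apart, and the part of cell makeup in these results was not tested.

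**Figure D4:**
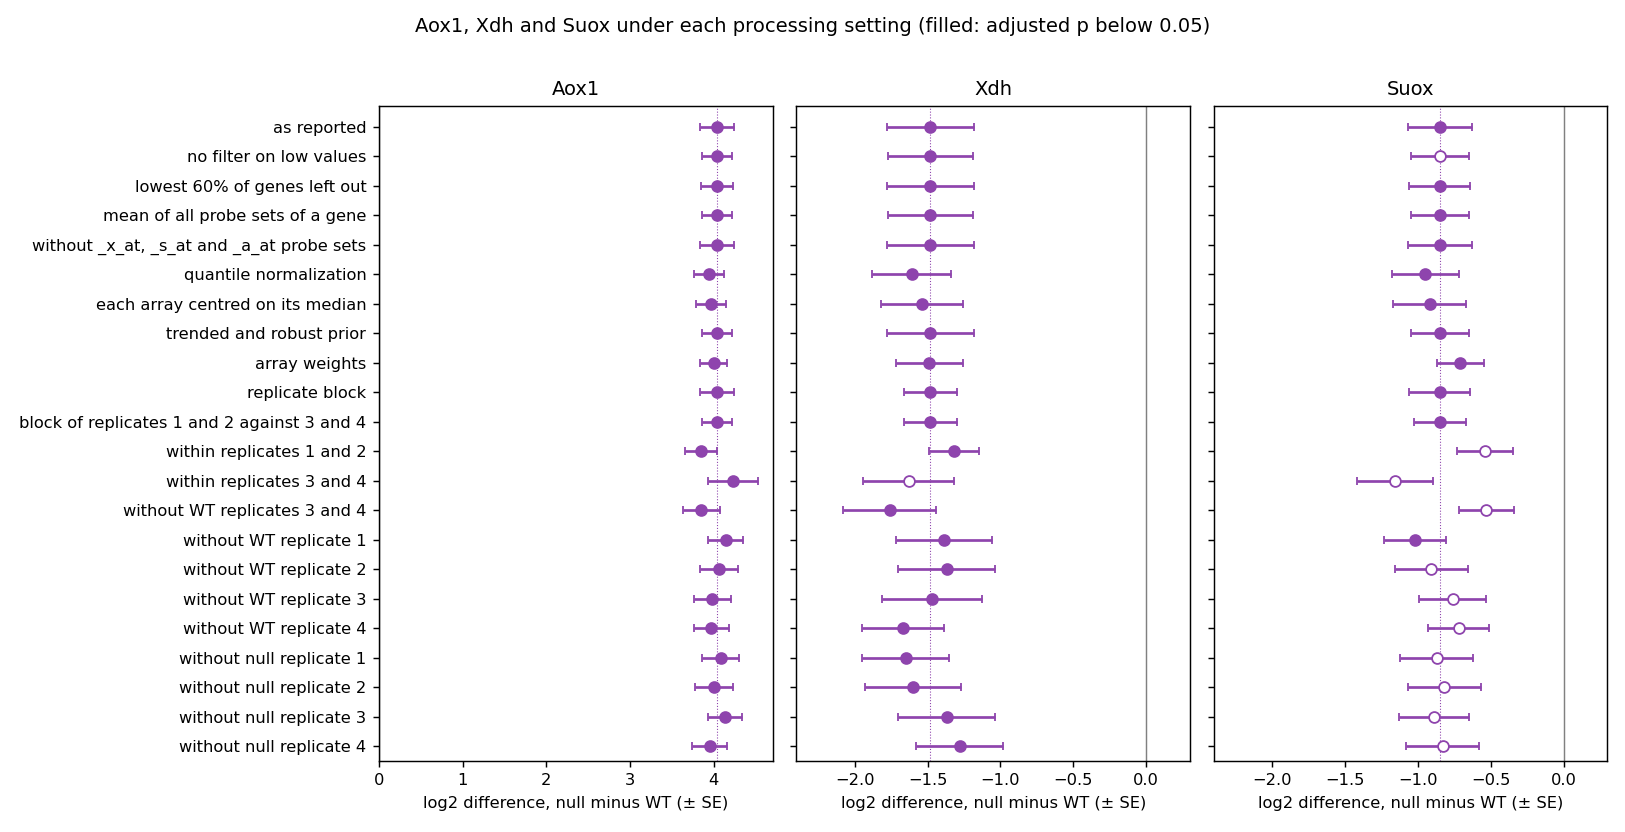
Log2 difference of Aox1, Xdh and Suox between TrxR1/Gsr-null (null) and WT livers (horizontal axes, ± SE) as reported and under 21 other settings (rows), with filled points where the adjusted p was below 0.05; the dotted line is the reported value. Aox1 lies between 3.85 and 4.23 and is filled throughout, Xdh is filled in 20 of the 21 settings and Suox in 10 of the 21.

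The direction of Aox1, Xdh and Suox was the same under every setting run. With each array quantile normalized again, Aox1 differed by 3.94, Xdh by -1.61 and Suox by -0.95, and with each array centred by subtracting its median by 3.97, -1.54 and -0.92, all called. Over all genes, calls split into 337 higher and 162 lower as reported (67.5% higher, median difference 0.10) and into 314 higher and 271 lower after quantile normalization (53.7% higher, median difference -0.01).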

How the data were processed

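Liver RNA of 4 TrxR1/Gsr-null and 4 WT mice was measured on 1 array per animal. The deposited table holds log2 values per probe set and array, made by the authors with GCRMA per the submitters' processing notes. GCRMA adjusts for background from probe base composition, applies quantile normalization and combines the probes of a set, which pulls low values together; version and settings: not given in the sources used here. That the scale is log2 was inferred from the range of the values (0.53 to 14.6). Arrays have no read depth, and precision is limited by their number.

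Gene symbols of the platform annotation were brought up to date by gene ID with RefSeq's GRCm38.p6 genes (20364 probe sets matched); 20380 probe sets had 1 symbol, 691 several and 1555 none, and 64 controls were left out. For each gene the probe set with the highest mean was kept, _x_at sets aside where another kind existed. Genes in the lowest 40% by mean (limit 3.38) were dropped unless at least 4 arrays exceeded it. Groups were compared across all genes with limma 3.58.1 in R 4.3.3 (no covariates, two-sided, Benjamini-Hochberg), and again across all 22626 probe sets with no filter. The within-array comparisons of Aox1 with the other oxidases and with Aox3 used exact permutation tests (scipy 1.17.1). The fit was checked on simulated data with independent noise on each array, so that check does not cover structure shared between arrays.

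Members, lists and the rule for named genes were chosen with earlier results of these data known. The rule took all members, up to 4 called genes per list and direction with the smallest adjusted p, the first 2 measured genes of a list with no call, and the 5 nearest genes of each called member, clone names passed over. Other list genes were named after their values were seen. The titles number the replicates, and deviations of same-numbered arrays from their group means correlated at 0.21 to 0.37, so a fit with the number as a block (replicate block) was run. Other pairs within replicates 1 and 2 and within 3 and 4 correlated at 0.195 to 0.397. No 2 arrays were identical (highest correlation 0.994). Alternatives varied the filter on low values, which probe sets stand for a gene, scaling, the variance prior, array weights, blocks and which arrays were used.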

Additional observations from a re-analysis of the deposited data

How the results depend on the processing

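Aox1 kept its direction and call in all 21 alternatives (difference 3.85 to 4.23, adjusted p up to 0.00444). Xdh kept its direction in all 21 and its call in 20 (-1.76 to -1.28). Suox kept its direction in all 21 and its call in 10 (-1.16 to -0.53). Maoa and Fmo2 were positive and uncalled in each of 20 alternatives, with adjusted p of 0.0793 to 0.852 and 0.0781 to 0.314. The replicate block, which pairs same-numbered arrays, changed no call of a member (Aox1 adjusted p = 9.39e-05, Xdh 0.00382, Suox 0.0455) and gave 454 genes higher and 240 lower in all. The count of members called lower was 1 with no filter on low values, within replicates 1 and 2 and without WT replicates 3 and 4, and 0 within replicates 3 and 4. With 1 array left out it was 1 to 2. Over all probe sets, 1 probe set of the members was called lower, but 2 with the lowest 60% left out, after quantile normalization, with array weights and with a block separating replicates 1 and 2 from 3 and 4, and 0 within replicates 3 and 4. It was 0 to 1 with 1 array left out. With 1 array left out, the smallest p that the exact permutation test can give is 0.0571. So 0 of the 6 comparisons of Aox1 with other members could pass there, and those fits do not check them.

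Genes called higher numbered 337 as reported, 578 with array weights, 647 with the block of replicates 1 and 2 against 3 and 4, 162 within replicates 3 and 4, 187 without WT replicates 3 and 4, and 196 to 387 with 1 array left out. Genes called lower numbered 162 as reported, 271 after quantile normalization, 428 with array weights, 334 with that block, 30 within replicates 3 and 4, and 75 to 134 with 1 array left out. Small uncalled differences changed sign. Fmo1 was -0.07 within replicates 3 and 4 and without WT replicate 1, at gene and probe set level. Fmo5 was 0.10 with the mean of its probe sets and 0.05 within replicates 3 and 4. With 1 array left out Fmo1 ran from -0.07 to 0.31 and Fmo5 from -0.20 to 0.15, with 0.07 lacking WT replicate 1, 0.08 lacking null replicate 3 and 0.10 lacking null replicate 4. The second Fmo2 probe set was -0.18 within replicates 1 and 2. Mocos and Uox were each called in 20 of 21 alternatives (not within replicates 3 and 4, adjusted p = 0.0807 and 0.0935), and Ddc in 21 of 21. The causes of these changes were not tested.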
